A study of Mus musculus with 8 samples.

Results

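The dystroglycan, sarcoglycan, sarcospan and syntrophin genes encode the membrane and adaptor subunits that surround dystrophin. The 8 genes Dag1, Sgca, Sgcb, Sgcd, Sgce, Sspn, Sntb1 and Sntb2 were taken by name, and all merged H3K56ac peaks within each gene and 20 kb on either side were collected. The 8 genes were read beside 21938 protein-coding genes, and their windows held 133 of 105600 peaks, or 0.126%. No value of the peak list enters the rule itself, but the genes were chosen with earlier results of these data known.

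Muscle stem cells (MuSCs) were isolated freshly from C57BL/6 mice, and chromatin carrying histone H3 acetylated at lysine 56 (H3K56ac) was immunoprecipitated and sequenced. There were 8 libraries, 2 of H3K56ac and 2 of input (chromatin that was not immunoprecipitated) from Control mice, and the same numbers from Sirt6mKO mice. The study calls the Control cells wild type, and elsewhere describes controls of Sirt6mKO mice as carrying floxed Sirt6 without the Cre. Sirt6mKO mice carried floxed Sirt6 alleles and a constitutively active Cre under the Pax7 promoter (Pax7-ICNCre), so that deletion reached the whole skeletal muscle lineage and not MuSCs alone. Ages were not given in the labels. The material analysed here was one merged peak list, which does not separate genotypes or libraries. Every value below therefore describes the union of peaks, with no replicates, no error and no test. Its score column was 0 throughout, it gives no depth for any library, and merging widens and fuses intervals.

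The dystrophin-glycoprotein complex spans the sarcolemma of muscle fibres and ties the cortical cytoskeleton to laminin in the basal lamina. Alpha-dystroglycan binds laminin outside the cell, beta-dystroglycan binds dystrophin or utrophin inside it, sarcoglycans and sarcospan form a subcomplex beside dystroglycan, and syntrophins are cytoplasmic adaptors. Mutations in several of these genes cause limb-girdle muscular dystrophies, and in MuSCs dystrophin and dystroglycan are also linked to cell polarity. H3K56ac is a mark of open, active chromatin that the deacetylase SIRT6 can remove.

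The peaks over MuSC genes set the scale for these cells. All 8 MuSC markers examined (Pax7, Myf5, Calcr, Cd34, Itga7, Vcam1, Megf10 and Chrdl2) had a promoter peak, with a median width of the widest one of 16656.5 bp and a range of 8977 to 33642 bp. All 8 myofibre genes examined also had one, with a median of 2634.5 bp and a range of 854 to 4349 bp. A promoter peak was absent from 3 of 4 immune genes (Ptprc, Itgam and Cd3e), 2 of 4 endothelial genes (Cdh5 and Tie1) and 1 of 4 fibro-adipogenic genes (Ly6a). The others had one, and the fibro-adipogenic gene Dpt, with a promoter peak of 9775 bp and 95.0% of the gene covered, lay within the range of the MuSC markers. The endothelial gene Pecam1 had 14 peaks that covered 27.5% of it, with a widest promoter peak of 3440 bp. The widest promoter peak was 4396 bp at Pdgfra, 623 bp at Pi16, 1139 bp at Kdr and 2636 bp at the immune gene Cd68. Sorting in the study was directed against cells with immune, endothelial and Sca1 surface proteins. The study re-analysed sorted cells and reported incomplete purity, so other cells remained. Their part in any interval was not tested.

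All 8 genes had a promoter peak, defined as a peak within 3 kb of any annotated transcription start site (TSS), compared with 67.8% of protein-coding genes. A peak lay over the TSS of the principal transcript in 6 of 8, compared with 57.7% of coding genes, and over 27 of 37 TSS positions (73.0%), compared with 53.1% of all coding TSS positions. Positions of a gene often share a peak, as all 6 of Dag1 did, so they are not independent. The exceptions for the principal transcript were Sgca and Sgcd. The widest promoter peak per gene ranged from 939 bp at Sgcd to 9208 bp at Sspn. Its median was 4035.5 bp, against 3430 bp over the 14872 coding genes with one (quartiles 2241.75 and 4945.25 bp), and 6 of 8 genes lay above that coding median. Dag1, Sntb2 and Sspn were above the upper quartile, and Sgcd and Sgce were below the lower one.

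**Figure D1:**
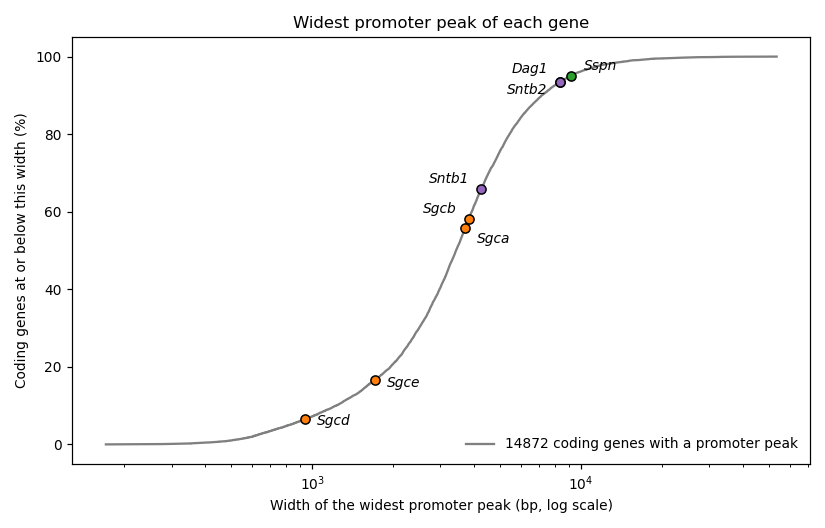
Width of the widest promoter peak in bp (log scale, horizontal) against the percent of the 14872 coding genes with a promoter peak that were at or below that width (grey curve), with the 8 genes as points coloured by role (dystroglycan blue, sarcoglycans orange, sarcospan green, syntrophins purple). Sspn, Dag1 and Sntb2 sit above 8 kb, Sgca, Sgcb and Sntb1 between 3700 and 4255 bp, and Sgce and Sgcd at 1706 and 939 bp.

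RefSeq promoter sequence (build GRCm38.p6) was matched for 5 of the 8 genes, with 7 start sites in all. Sgce, Sntb1 and Sntb2 had no entry. A stretch of up to 250 bases before the start, without annotated exon sequence, is shown for Dag1, Sgcb and Sspn, whose starts lay in a peak, and for Sgca, whose start did not. Capitals mark CpG dinucleotides, and each sequence reads from 5′ to 3′ along the gene. The positions are chr9:108263959-108264208 on the minus strand for Dag1, chr5:73647791-73647987 on the minus strand for Sgcb, chr6:145933872-145934121 on the plus strand for Sspn and chr11:94976328-94976577 on the minus strand for Sgca.
Dag1: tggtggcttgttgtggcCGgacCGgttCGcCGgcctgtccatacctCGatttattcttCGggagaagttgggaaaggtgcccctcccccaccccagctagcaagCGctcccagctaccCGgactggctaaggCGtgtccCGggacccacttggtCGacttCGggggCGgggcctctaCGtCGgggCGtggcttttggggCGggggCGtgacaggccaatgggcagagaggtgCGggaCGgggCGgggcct
Sgcb: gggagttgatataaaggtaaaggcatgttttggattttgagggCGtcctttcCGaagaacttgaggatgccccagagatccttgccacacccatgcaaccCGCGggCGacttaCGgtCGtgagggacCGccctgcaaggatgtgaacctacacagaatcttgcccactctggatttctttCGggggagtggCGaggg
Sspn: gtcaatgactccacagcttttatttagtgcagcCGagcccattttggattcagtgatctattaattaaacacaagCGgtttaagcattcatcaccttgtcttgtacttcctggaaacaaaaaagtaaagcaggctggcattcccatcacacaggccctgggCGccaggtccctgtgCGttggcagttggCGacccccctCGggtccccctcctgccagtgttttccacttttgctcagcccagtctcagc
Sgca: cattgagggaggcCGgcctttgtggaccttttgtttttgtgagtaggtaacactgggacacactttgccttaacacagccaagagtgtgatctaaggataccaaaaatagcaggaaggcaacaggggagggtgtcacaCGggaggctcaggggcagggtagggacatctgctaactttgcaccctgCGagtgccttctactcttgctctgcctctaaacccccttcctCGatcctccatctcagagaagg

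The Dag1 stretch held 21 CpG dinucleotides in 250 bases and the Sgca stretch held 4. The Sspn stretch held 6 in 250 bases and the Sgcb stretch 10 in 197 bases. Over the full 250 bases, the ratio of observed to expected CpG was 0.749 for Dag1, 0.665 for Sgcb, 0.377 for Sspn and 0.230 for Sgca, against a median of 0.551 over 20145 coding promoters (quartiles 0.227 and 0.808). A second annotated Dag1 start had a ratio of 1.09, the Sgcd start 0.451 and the upstream Sspn start 0.140. Each of these windows, like that of Sgcb, overlapped annotated exon sequence. A peak covered the start of 5 of these 7 promoters, and the 2 with the lowest ratios, Sgca and the upstream Sspn start, were outside peaks. Over all coding promoters, 90.9% of the 9291 with a ratio of at least 0.6 had the start in a peak, compared with 35.0% of the 10854 below it and 60.8% of all. This threshold was chosen after the peak list had been opened.

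**Figure D2:**
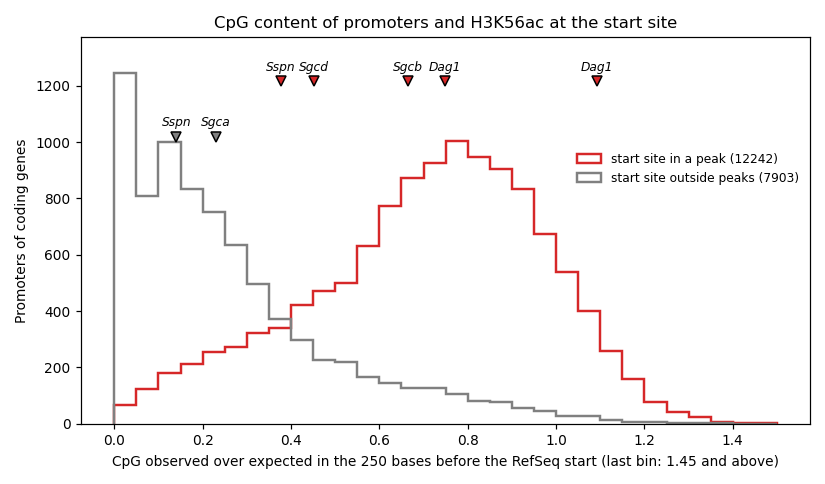
Number of coding promoters (vertical) by the ratio of observed to expected CpG in the 250 bases before the RefSeq start (horizontal, in bins of equal width), drawn separately for starts in a peak (red) and outside peaks (grey). Triangles mark the 7 starts of Dag1, Sgca, Sgcb, Sgcd and Sspn in the same colours, and their height only separates the groups. The 2 grey triangles have ratios of 0.140 and 0.230, and the 5 red ones run from 0.377 to 1.09.

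A set of 5 short motifs was searched on both strands of the 250 bases before each start. GGGCGG, the GC box, occurred 3 times before Dag1 (from -87 to -82, -54 to -49 and -11 to -6, counted from the start) and once each before Sgcb and Sgcd, and was held by 44.1% of coding promoters. The same 3 copies lay before the second Dag1 start. TATAAA occurred once before Sgcb (11.2% of coding promoters), TGANTCA once before the upstream Sspn start (6.13%) and GGAATG once before Sgcd and once before each Sspn start (11.5%). The E-box CAGCTG, held by 12.3% of coding promoters, was in none of the 7. The Sgca stretch held none of the motifs. Of the 250 bases, those before any annotated exon numbered 53 at Sgcd and 18 at the upstream Sspn start. The Sgcd matches lay within exon 1 of Sgcd-201. All matches describe letters in a window only.

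Peaks covered a median of 27.5% of the 8 genes, against 7.82% of all coding genes, and 7 of 8 were above that coding median. The range was wide, from 0.0859% of Sgcd to 79.3% of Sspn. Since long genes have a smaller covered share, each gene was set beside coding genes within 20% of its length. On that scale Sspn, Dag1, Sntb2, Sntb1 and Sgca were above the upper quartile, Sgce and Sgcb were between the median and the upper quartile, and Sgcd was below the median. The map of the peaks over the 8 genes shows these differences in arrangement.

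**Figure D3:**
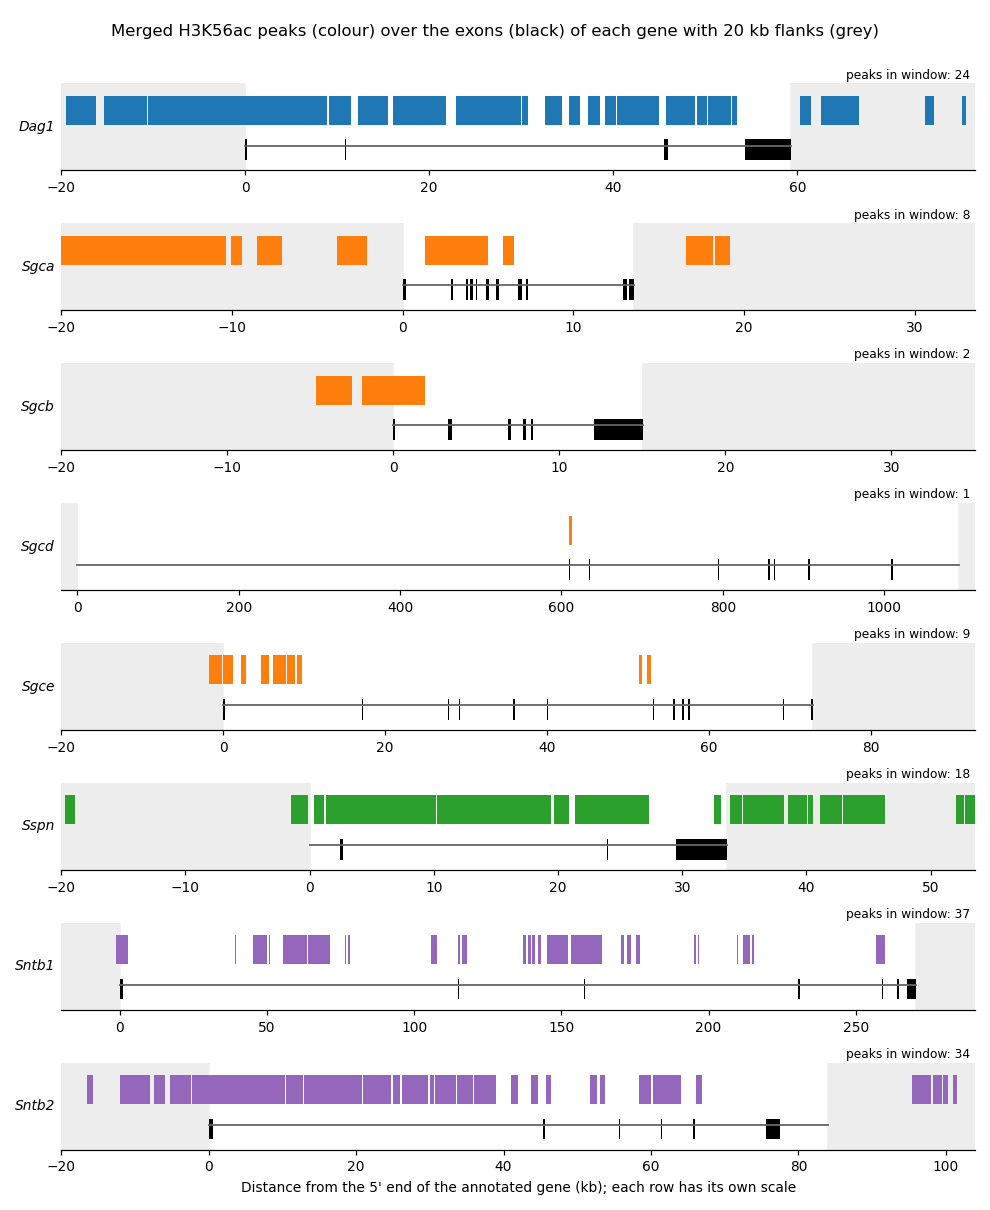
Merged H3K56ac peaks (coloured bars) over the exons of the principal transcript (black) of each gene, with 20 kb flanks in grey; the horizontal axis is the distance from the 5′ end of the annotated gene in kb, with its own scale for each gene, and very narrow bars are drawn at a minimum width. Peaks run through most of Dag1, Sspn and the 5′ part of Sntb2 and are spread through Sntb1. They sit near the 5′ end of Sgca, Sgcb and Sgce, with a further pair in intron 6 of Sgce, and number 1 in Sgcd.

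**Figure D4:**
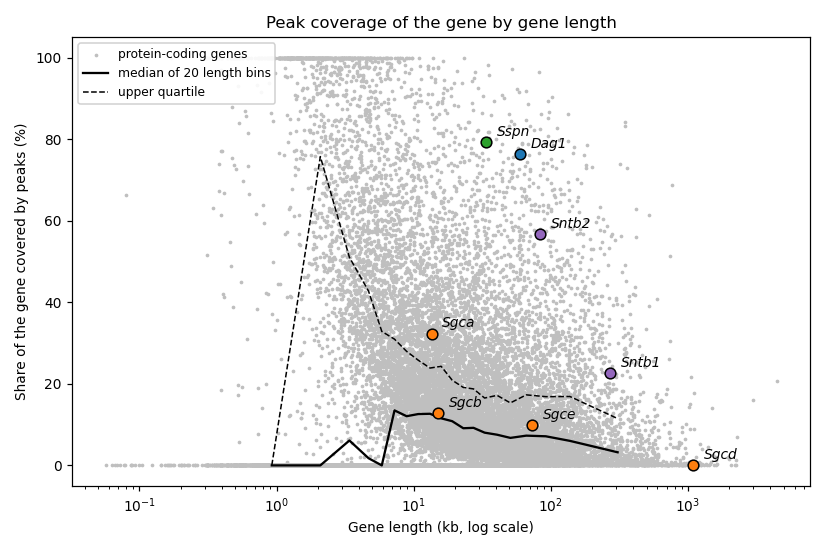
Share of each coding gene covered by peaks in percent (vertical) against gene length in kb (log scale, horizontal), with the median and upper quartile of 20 bins of equal gene number as lines and the 8 genes coloured by role. Sspn, Dag1 and Sntb2 lie at 79.3, 76.3 and 56.8%, far above both lines, whereas Sgcd lies at 0.0859%.

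Dag1 encodes the precursor of alpha- and beta-dystroglycan, the core that joins laminin to dystrophin. It lies at chr9:108204634-108263958 (mm10, minus strand, ENSMUSG00000039952.15) and spans 59.3 kb. The gene held 16 peaks that covered 76.3% of it, while the 1680 coding genes of similar length had a median of 7.14%, and 15 of them reached the share of Dag1. The promoter peak was 8348 bp wide (chr9:108258037-108266384), reached 5921 bp past the TSS into the gene, and was wider than or equal to that of 93.5% of coding genes with one. All 6 TSS positions were inside it, as was the whole CpG-rich stretch printed above.

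Coverage of Dag1 ran along nearly the whole gene. Intron 1 was covered to 97.7%, intron 2 to 79.1% and intron 3 to 83.7%, whereas the last exon, 5028 bp long with most of the coding sequence, held 0 peaks. The longest stretch without a peak, 5.83 kb, was this 3′ end. The 20 kb upstream of Dag1 were covered to 92.2%, with no TSS of another coding gene within 3 kb of those peaks. Joining peaks less than 1 kb apart gave a region of 41.3 kb made of 9 peaks that began upstream and ended in intron 2, and 167 of 58591 joined regions of the genome were at least as long. Downstream, coverage was 33.9%, and 1 of the 4 peaks there (1002 bp) lay at the promoter of Bsn, a presynaptic protein gene.

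The sarcoglycans are single-pass membrane proteins that stabilise dystroglycan at the membrane. In striated muscle alpha-, beta-, gamma- and delta-sarcoglycan form one complex, and epsilon-sarcoglycan, a paralogue of alpha, is expressed more broadly. As a group the 4 genes had the narrower promoter peaks, from 939 to 3816 bp, all below those of Sntb1, Sntb2, Dag1 and Sspn. Their covered shares ranged from 0.0859 to 32.3%.

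Sgca encodes alpha-sarcoglycan and lies at chr11:94962791-94976327 (minus strand, ENSMUSG00000001508.15, 13.5 kb). Its annotated 5′ end, shared by Sgca-202 and Sgca-205, was not in a peak but in a gap of 3416 bp, with 1326 bp to the next peak inside the gene. That peak was 3700 bp wide (chr11:94971302-94975001), began 1326 bp and ended 5025 bp after the TSS, and overlapped exons 2 to 6. It contained the starts of the shorter transcripts Sgca-201 and Sgca-204, so that 2 of 4 TSS positions were in a peak. Exon 1 held 0 peaks, and Sgca was the only one of the 8 genes whose first exon did not overlap one.

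The 2 peaks of Sgca covered 32.3% of the gene, all within its 5′ part, since the 5′ side of its midpoint was covered to 64.7% and the 3′ side to 0%. The median of the 2312 coding genes of similar length was 12.2%, and 385 reached the share of Sgca. The smaller peak, 678 bp in intron 7, was also within 3 kb of the TSS of Hils1, a spermatid linker histone-like gene. Upstream, 67.3% of the 20 kb was covered, but this flank includes part of a peak of 10208 bp, the widest in any of the 8 windows, that lay at the promoter of Ppp1r9b, which encodes the actin-binding protein spinophilin.

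Sgcb encodes beta-sarcoglycan and lies at chr5:73632749-73647790 (minus strand, ENSMUSG00000029156.11, 15.0 kb). It had 1 peak in the gene, 3816 bp wide (chr5:73645859-73649674), and reached 1931 bp past the TSS into the gene. The peak covered exon 1 and part of intron 1, and the remaining 13.1 kb of the gene, or 87.2% of it, held none. The covered share of 12.8% was close to the median of 12.0% of the 2358 genes of similar length. Both peaks of the window, this one and one of 2182 bp upstream, also lay within 3 kb of a TSS of Spata18, the neighbouring gene on the opposite strand, which acts in mitochondrial quality control.

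Sgcd encodes delta-sarcoglycan and spans 1093 kb at chr11:46896253-47988969 (minus strand, ENSMUSG00000020354.15). In this whole window there was 1 peak, 939 bp wide (chr11:47378426-47379364), which covered 0.0859% of the gene. It began 158 bp after the TSS of the principal transcript Sgcd-201 and overlapped 41.3% of its first exon. None of the 4 annotated GENCODE starts was in a peak, while the RefSeq start used for the sequence features, which lies within that exon, was. Sgcd-202, Sgcd-203 and Sgcd-204 start further upstream, 199601 to 609605 bp from this peak. The gap on the upstream side of the peak was 1394.5 kb long. The 60 coding genes of similar length had a median share of 0.425%, and 43 of them reached the share of Sgcd.

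Sgce encodes epsilon-sarcoglycan, a maternally imprinted gene whose human counterpart is mutated in myoclonus-dystonia. It lies at chr6:4674350-4747207 (minus strand, ENSMUSG00000004631.15, 72.9 kb), head to head with the imprinted gene Peg10, which starts at chr6:4747306 on the plus strand. The peak over the principal TSS was 1231 bp wide (chr6:4745975-4747205) and held the starts of most transcripts. With the start of Sgce-213, which lay in a separate peak inside the gene, 10 of 12 TSS positions were in a peak. A gap of 87 bp separated the 1231 bp peak from a peak of 1618 bp that began on the Peg10 side. The start of Sgce-201 fell in this gap, 2 bp from the Sgce peak. The peaks at this shared promoter cannot be assigned to either gene.

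Sgce held 8 peaks that covered 9.81% of the gene, compared with a median of 7.14% in 1469 genes of similar length. Intron 1 was covered to 35.6%. The widest of its promoter peaks, 1706 bp, lay 6075 to 7780 bp inside the gene at the start of the retained-intron transcript Sgce-213. It exceeded the peak at the principal TSS, and both were narrow, since 1706 bp was at or above 16.5% of coding genes. After 2 further peaks of 1017 and 633 bp came a stretch of 41.5 kb without a peak, and a pair of peaks of 462 and 449 bp lay in intron 6.

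**Figure D5:**
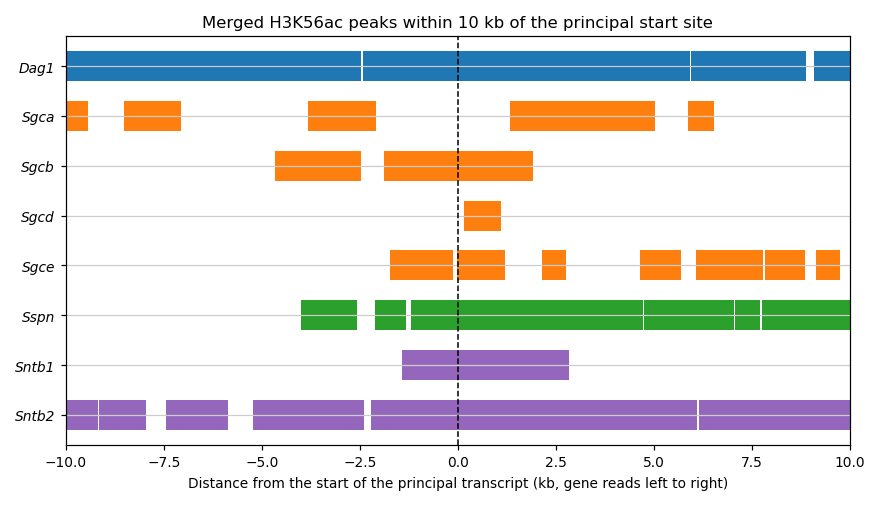
Merged H3K56ac peaks (bars, coloured by role) within 10 kb of the TSS of the principal transcript of each gene (dashed line), with distance in kb and each gene read from left to right. The bar crosses the dashed line in 6 genes, starts 1326 bp after it in Sgca and 158 bp after it in Sgcd, and neighbouring bars continue on both sides in Dag1, Sspn and Sntb2.

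Sspn encodes sarcospan, a membrane protein with 4 transmembrane segments that associates with the sarcoglycans. It lies at chr6:145931641-145965223 (plus strand, ENSMUSG00000030255.13, 33.6 kb) and had the widest promoter peak and the highest covered share of the 8 genes. Its 8 peaks covered 79.3% of the gene, against a median of 8.56% in 2266 genes of similar length, of which 17 reached that share. The peak over the start of the principal transcript Sspn-201 was 5920 bp wide, and that over the start of Sspn-202 was 5954 bp wide. Between them lay a peak of 9208 bp (chr6:145941893-145951100) within intron 1, counted as a promoter peak because it ended within 3 kb of the start of Sspn-202.

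The start of Sspn-203, the most upstream transcript, fell in a gap of 467 bp, 95 bp from the nearest peak. Intron 1 of Sspn was covered to 96.4%, and the last exon to 13.2% by a peak of 540 bp. That made Sspn the only one of the 8 genes with a peak in its last exon. Peaks continued downstream, where 63.8% of the 20 kb was covered by 8 peaks and no TSS of another coding gene lay within 3 kb of them, whereas upstream coverage was 10.9%. The joined region over Sspn was 28.8 kb long, and 411 of 58591 joined regions were at least as long. An antisense transcript, Sspnos, starts inside the gene, and the list carries no strand by which its peaks could be told apart from those of Sspn.

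Sntb1 and Sntb2 encode beta1- and beta2-syntrophin, adaptors that bind the carboxy-terminal part of dystrophin and utrophin and recruit signalling proteins through a PDZ domain. Sntb1 lies at chr15:55636388-55906949 (minus strand, ENSMUSG00000060429.12, 271 kb). Its promoter peak of 4255 bp (chr15:55904108-55908362) held all 3 TSS positions and stood alone: the next peak began 39089 bp into the gene, after a gap of 36247 bp. Upstream, only the peak itself was found, with 7.07% of the flank covered, and downstream there was none.

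Within Sntb1 the 37 peaks, the most of any of the 8 genes, covered 22.7% of it, compared with a median of 4.05% in 389 genes of similar length, of which 55 reached that share. Intron 1 held 16 peaks (22.4% covered), intron 2 held 9 (40.0%) and intron 3 held 11 (19.8%). The widest peak of the gene was not at the promoter but in intron 2, 7115 bp wide and 145014 bp from the TSS. Counted from the midpoint of the gene, the 3′ side of Sntb1 was covered to 24.2% and the 5′ side to 21.2%, so peaks were not concentrated near the promoter.

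Sntb2 lies at chr8:106935750-107019714 (plus strand, ENSMUSG00000041308.6, 84.0 kb). Its promoter peak of 8318 bp (chr8:106933539-106941856) reached 6105 bp past the TSS and held all 3 TSS positions. The 24 peaks in the gene covered 56.8% of it, against a median of 7.05% in 1325 genes of similar length, of which 48 reached that share. Intron 1 alone held 16 peaks and was covered to 86.1%. The 5′ side of its midpoint was covered to 90.7% and the 3′ side to 22.9%, and the last 17.0 kb held no peak.

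Joining peaks less than 1 kb apart gave a region of 51.0 kb made of 19 peaks that began upstream of Sntb2 and ended in intron 1. Only 88 of 58591 joined regions were at least as long. All 4 peaks in the downstream flank lay within 3 kb of a TSS of Vps4a, an endosomal sorting ATPase gene. The paralogues thus differed in arrangement, with one continuous 5′ domain in Sntb2 and an isolated promoter peak followed by separate intronic clusters in Sntb1.

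Each of the 133 peaks in the windows was put in the first class that applied, in the order promoter, exon, intron and flank. This gave 24 promoter peaks, 6 exonic peaks outside promoters, 73 intronic peaks, 12 in the upstream flank and 18 in the downstream flank. Counted without that order, 15 peaks overlapped an exon of the principal transcript. Peaks of at least 5 kb numbered 12 (9.02%), compared with 6.00% of all peaks, and the median width was 1276 bp against 974 bp. For 12 of the 133 peaks a TSS of another coding gene lay within 3 kb. The split into classes and this last count were not computed over all peaks. The 8 genes were also longer than coding genes at large (median 66.1 against 17.4 kb), so neither is read as a trait of them.

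Position within the genes was compared with that over coding genes at large. The first exon of the principal transcript overlapped a peak in 7 of 8 genes, compared with 61.9% of coding genes with at least 2 exons, and the first intron in 8 of 8, compared with 65.0%. The last exon overlapped one in 1 of 8, compared with 14.7%. The 5′ side of the midpoint was covered more than the 3′ side in 6 of 8, with Sntb1 and Sgcd as the exceptions, compared with 80.3% of coding genes with a peak. First introns overlapped 50 of the 97 peaks that touched a gene, a share that was not computed over all coding genes and that depends on intron length. The midpoint of Sgcd lies upstream of its principal TSS, on account of the upstream transcripts.

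Genes of the same complex and pathway were listed beside these 8. Of 12 other genes of the complex, 11 had a promoter peak, compared with 67.8% of protein-coding genes. The one without was Sntg1, which encodes gamma1-syntrophin. The widest were those of Utrn, the dystrophin homologue utrophin (10610 bp), Dtnb, beta-dystrobrevin (5594 bp), and Drp2, dystrophin-related protein 2 (3906 bp). The median over the 11 was 3053 bp, and the median covered share over the 12 was 7.05%, near the 7.82% of all coding genes.

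The genes listed for dystroglycan glycosylation all had a promoter peak, 17 of 17, compared with 67.8% of protein-coding genes. The median of the widest one was 3633 bp, near the 3430 bp over coding genes with one. At B3galnt2, which encodes an acetylgalactosaminyltransferase, the promoter peak was 4747 bp wide. The median covered share over the 17 genes was 16.8%, against 7.82% over all coding genes. Several of the 17 were short, such as Dolk (2.104 kb, 94.1% covered), and this median was not adjusted for length.

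Of 7 genes for dystroglycan ligands, 5 had a promoter peak, near the share of 67.8% over protein-coding genes. Lama1, laminin alpha1, was among those without. The widest were at Hspg2, which encodes perlecan (14384 bp), Lama2, laminin alpha2 of the muscle basal lamina (12287 bp), and Lama5, laminin alpha5 (3073 bp). The median covered share was 5.98%, against 27.5% for the 8 genes described above. With 8, 12, 17 and 7 genes of differing length, these medians are descriptions, and the differences between the lists were not tested. The lists, too, were drawn up with earlier results of these data known.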

How the data were processed

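Per the study's methods, the authors trimmed reads with Trim Galore, aligned them to mm10 with bowtie keeping uniquely aligned reads, removed duplicates with Picard, called peaks with MACS2, removed blacklisted regions and merged overlapping peaks with GenomicRanges. Which libraries entered the merge was not given in the sources used here. The deposited list holds the position of each interval, and its score column, deposited as 0 in every line, was not used as a measurement. No column holds values per sample, so the genotypes were not compared.

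Here, intervals were intersected (minimum overlap 1 bp) with GENCODE vM21 genes on GRCm38 in Python 3.11.15, and figures were drawn with matplotlib 3.10.9. Coordinates count from 1. A promoter was 3 kb on either side of any TSS of a gene. The principal transcript was the APPRIS-tagged protein-coding one with the longest coding sequence. Genes of similar length were those within 20% of it. RefSeq promoters were scored over 250 bases. The functions were checked on simulated intervals with known answers.

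The 8 genes and the lists were chosen with earlier results of these data known. Named were the 8 genes, neighbours with a TSS within 3 kb of a peak, and, of each list, genes without a promoter peak and the 3 with the widest. Markers of all lists but the myofibre list are named in full. Some genes that this rule names are not reported here.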

Additional observations from a re-analysis of the deposited data

How the results depend on the processing

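With peaks that contain a TSS in place of those within 3 kb, 7 of the 8 genes kept a promoter peak (Sgcd did not) and the median of the widest was 4255 bp, and joining peaks less than 1 kb apart raised it from 4035.5 to 5903.5 bp. The median covered share of 27.5% became 27.3% with peaks of at least 500 bp, 31.8% with joined peaks and 29.1% with 20 kb flanks. With those flanks 6 genes in place of 7 were above the coding median, since Sgce fell below it (7.76% against 9.53%). All 8 windows together were covered to 14.0%, which became 11.9% with no flank, 13.5% with 10 kb, 14.6% with 50 kb, 13.9% with peaks of at least 500 bp and 15.4% with joined peaks. Joining turned the 133 peaks into 46, and their number was 97 with no flank, 118 with 10 kb, 172 with 50 kb and 126 with peaks of at least 500 bp. With genes within 50% of a gene's length, none of the 8 percentiles moved by over 5 points. No paired analysis was possible because the list gives no values per sample.

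The list is a union of peaks, so width reflects merging as well as signal, and it allows no statement on Sirt6mKO against Control, on signal strength or on reproducibility between libraries. The absence of a peak means only that none was called at the depth used.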
